A study of Rattus norvegicus with 29 samples.

Results

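Translation factors are the proteins that load ribosomes onto messenger RNA, carry them along it and release the finished chain. The probe sets described here are those whose single annotated gene symbol begins with Eif1 to Eif6, Eef1, Eef2 or Pabpc, or is Etf1 or Caprin1. They number 70 probe sets of 59 genes, out of 15866 probe sets on a rat expression array. Of these, 60 probe sets of 54 genes passed a filter on low signal and were tested, among 9520 tested in all.

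In initiation, eIF2 brings the initiator tRNA to the small ribosomal subunit, eIF2B recharges eIF2 with GTP, eIF3 holds the complex together, and eIF4E with eIF4G and eIF4A brings in the capped message. Kinases that phosphorylate eIF2 alpha slow initiation, and 4E-BPs hold eIF4E back until the kinase mTOR phosphorylates them. In elongation, eEF1A delivers tRNAs and eEF2 moves the ribosome along, and eEF2 kinase blocks eEF2. New protein synthesis in the amygdala is needed for a fear memory to last, and much of its control acts by phosphorylation, which an RNA array does not measure.

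The study took RNA from the basolateral amygdala, a brain region central to learned fear. The arrays cover 5 samples from rats conditioned under isoflurane, an inhaled anaesthetic that impairs memory, 5 from rats conditioned without it, 5 after pain alone and 5 after isoflurane alone, all at 6 h, and 9 baseline samples with no stated time. No strain, sex, age or genetic change is given for any group. Rat numbers are given for 15 arrays only (pain, conditioning, conditioning under isoflurane), so p-values measure the spread between arrays, which may be technical in part. The labels name a labelling kit on 14 arrays (isoflurane and baseline) and none on the other 15, so a kit difference and a treatment effect cannot be told apart in comparisons across these blocks. All levels below are log2 of the quantile-normalised intensity, and levels are compared only within a probe set. The question is whether the messages of the translation apparatus differed 6 h after each treatment, and whether isoflurane altered the response to conditioning.

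Some arrays stood apart. Pain replicate 3 had a median correlation of 0.907 with the other 28 arrays, against 0.950 or more for each of the others. Its deposited median signal was 292.2, against 210.7 to 249.95 on the others, before normalisation. Within baseline, replicates 6 to 9 and replicates 1 to 5 differed for some members, as described below. In conditioning against baseline, 10 of 10 oligodendrocyte marker probe sets averaged higher (median 0.33 log2 units), and 6 of 6 striatal marker probe sets averaged lower (median -0.35). The summed oligodendrocyte signal ran from 31217 to 43431 intensity units in conditioning and from 23663 to 38885 in baseline. The summed striatal signal ran from 3782 to 10862 in conditioning and from 3876 to 14897 in baseline. Astrocyte markers averaged higher in conditioning than in baseline on 11 of 11 probe sets (median 0.17) and microglial markers on 7 of 7 (median 0.20), while inhibitory neuron markers averaged lower on 6 of 7 (median -0.27). No marker probe set passed an adjusted p of 0.05 in any comparison, and the part of tissue makeup in the results below was not tested. In such bulk samples, fewer cells of a type and less RNA per cell cannot be told apart. The excitatory neuron markers on the array (Slc17a7, Camk2a, Nrgn and Neurod2) passed the signal filter.

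Many messages of the translation apparatus begin with a tract of pyrimidines led by a C, the TOP motif, through which mTOR controls their translation. Promoter sequences from RefSeq (build GRCr8) were found for 54 of the 59 genes. A C followed by at least 4 pyrimidines (C or T), on the gene strand and starting within 20 bases of the annotated start, was present in 30 of these 54 genes (55.6%). It was present in 13673 of 27457 genes of the whole promoter table (49.8%), so its presence hardly sets the members apart. It was found in 5 of the 5 listed TOP genes that have a sequence, and in 25 of the other 49 (51.0%). The 60 bases around the annotated start, 30 on each side, are printed with the longest such tract in capitals. Where tracts were equally long, the first is in capitals. First come members of the TOP list whose levels are described below.
Eef1a1 (chr8:88225040-88225099, - strand): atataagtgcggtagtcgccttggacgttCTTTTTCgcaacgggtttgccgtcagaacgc
Eef2 (chr7:9189209-9189268, - strand): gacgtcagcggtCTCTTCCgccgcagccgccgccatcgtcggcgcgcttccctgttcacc
Eef1b2 (chr9:72074061-72074120, + strand): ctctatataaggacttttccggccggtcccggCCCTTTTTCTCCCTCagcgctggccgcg
Eef1g (chr1:215289785-215289844, + strand): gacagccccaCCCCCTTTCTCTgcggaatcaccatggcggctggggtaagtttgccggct
Next come the members with the lowest p-values over the 5 groups, 1 of which, Eif2b3, has no such tract in the window.
Caprin1 entry 1 (chr3:110641029-110641088, - strand): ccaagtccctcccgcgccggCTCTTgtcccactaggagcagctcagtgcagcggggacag
Caprin1 entry 2 (chr3:110640454-110640513, - strand): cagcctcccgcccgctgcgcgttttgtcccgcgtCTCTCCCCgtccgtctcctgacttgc
Eif2b3 (chr5:135728812-135728871, + strand): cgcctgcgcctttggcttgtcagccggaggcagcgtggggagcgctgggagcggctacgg
Eif4a2 (chr11:91275294-91275353, - strand): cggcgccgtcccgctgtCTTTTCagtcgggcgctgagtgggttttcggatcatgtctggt
Eif2s3 (chrX:62933670-62933729, - strand): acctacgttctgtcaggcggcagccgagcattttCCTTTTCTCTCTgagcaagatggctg
Caprin1 has 2 annotated starts. The tract in capitals begins at the base before the annotated start in Eef1a1, farther before it in Eef2, Eef1g and Eif4a2, and after it in Eef1b2 and Eif2s3. Eef2 also has an equally long tract, left in lower case, that begins after the annotated start. A match of letters is a description, and no factor's binding or translation was measured.

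With all 29 arrays, no member passed the adjusted threshold of 0.05 in any of the 8 comparisons or in the F test over the 5 groups. In the F test, 0 of 60 members passed, and the lowest adjusted p in limma was 0.674. At an unadjusted p under 0.05 there were 2 members (3.33%), against 7.35% of all 9520 probe sets tested, of which 0% passed after adjustment. Those 2 were Caprin1 (probe set 1371939_at, unadjusted p = 0.0303 in limma) and Eif2b3 (unadjusted p = 0.0453 in limma). Eif4a2, Eif2s3, Eif5a and Eif3a followed, with unadjusted p of 0.0631, 0.0643, 0.0780 and 0.0846 in limma. The median SD within groups was 0.170 log2 units for the members, from 0.0566 for Eif4h to 0.630 for Eif1a, against 0.227 over all probe sets tested. Members were not matched to other probe sets by signal.

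**Figure D1:**
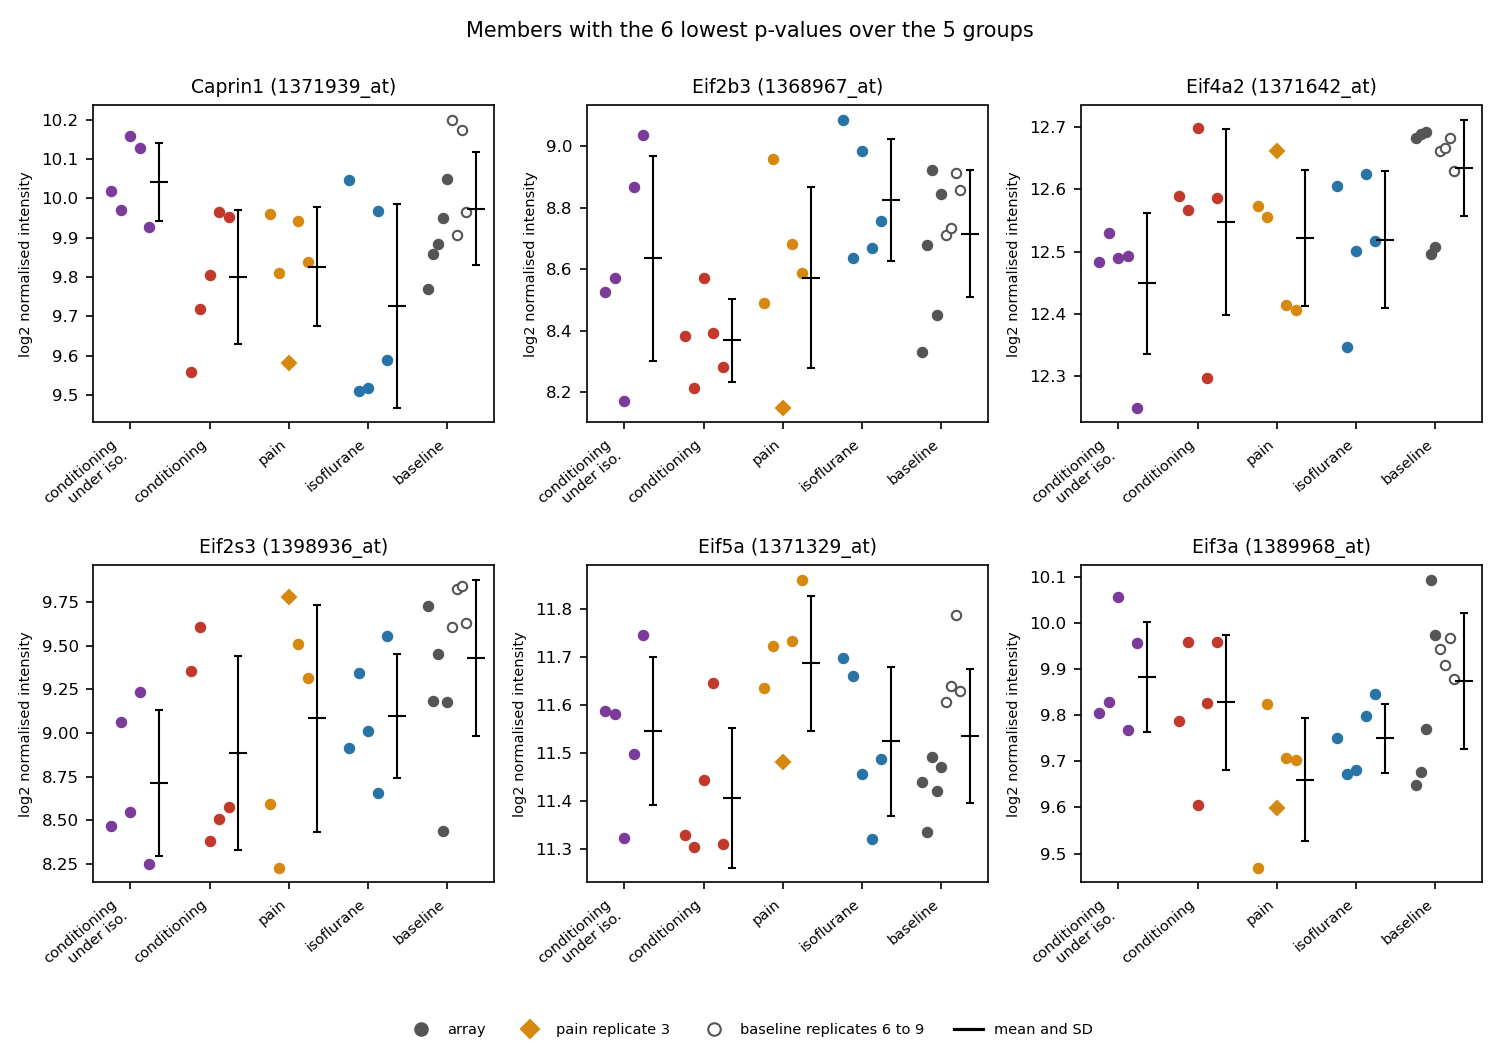
Log2 normalised intensity (vertical axes) on each array for the 6 members with the lowest p-values over the 5 groups, with groups from conditioning under isoflurane to baseline on the horizontal axes. Points are arrays, open points are baseline replicates 6 to 9, the diamond is pain replicate 3, and bars give the mean and SD. Groups overlap in most pairs, as for Caprin1 on 1371939_at, at 9.93 to 10.16 in conditioning under isoflurane and 9.51 to 10.05 in isoflurane.

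Conditioning against baseline gave small differences on both sides. Of the 60 members, 21 averaged higher and 39 lower, with a median of -0.03 on the log2 scale, against 0.00 over all probe sets tested. At an unadjusted p under 0.05, 0 members were higher and 5 lower, against 5.12% of all probe sets higher and 5.03% lower. With 1 array left out the lower count ran from 1 (without baseline replicate 7 or without conditioning replicate 5) to 6. The matching shares of all probe sets are not given here. After adjustment 0 members passed, and 0% of all probe sets did. The groups overlapped for every member, against non-overlap in 0.116% of all probe sets. The 5 members were Eif2b3, Eif1b, Eef1e1, Eif2s3 and Eif2b4, and their lowest adjusted p in limma was 0.419.

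Conditioning under isoflurane against baseline had 27 members averaging higher and 33 lower, with a median of -0.02 against 0.00 over all probe sets. Before adjustment, at p under 0.05, 0 were higher and 5 lower, against 3.25% and 3.26% of all probe sets. With adjustment, 0 members and 0% of all probe sets passed, and 0 members failed to overlap, against 0.221% of all. The 5 were Eif4a2, Eif2s3, Eef1a1 on 1388110_at, Eif4ebp1 and Eif3i, with 0.624 as the lowest adjusted p in limma. Vascular markers averaged higher on 3 of 3 probe sets in the same comparison (median 0.36, each at an unadjusted p under 0.05), with a summed signal of 1001 to 1314 intensity units in conditioning under isoflurane and 829.7 to 1072 in baseline. Their part in the result was not tested.

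Pain against baseline had 25 members higher and 35 lower, with a median of -0.03 against 0.00. Without pain replicate 3 the counts were 29 and 31 and the median was 0.00. By an unadjusted p under 0.05, 1 member was higher (Eef1g) and 1 lower (Eif3a), against 4.33% and 4.63% of all probe sets. Without that array there were 2 on each side, Eif5a and Eif3j higher and Eif4a2 and Eif3a lower. The share of all probe sets without it is not given here. Of the members, 0 passed after adjustment, as did 0% of all probe sets, and 0 members failed to overlap, against 0.116% of all. Blood markers averaged lower on 2 of 2 probe sets: Hbb, a haemoglobin chain, by a difference of -1.19 and Epb41, which braces red cells from within, by -0.71 (adjusted p = 0.0704 in limma for each). Their summed signal with Alas2 was 1375 to 2203 intensity units in pain and 2441 to 6874 in baseline, without overlap, and its part in the result was not tested.

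Isoflurane against baseline had 24 members higher and 36 lower, with a median of -0.02 against 0.00. At an unadjusted p under 0.05, 0 members were higher and 2 lower (Caprin1 on 1371939_at and Eif4g1), against 2.64% and 2.74% of all probe sets. After adjustment 0 members passed, against 0.0105% of all probe sets, and 0 members failed to overlap, against 0.137%. These 4 comparisons share the 9 baseline arrays, so their values are not independent of each other.

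**Figure D2:**
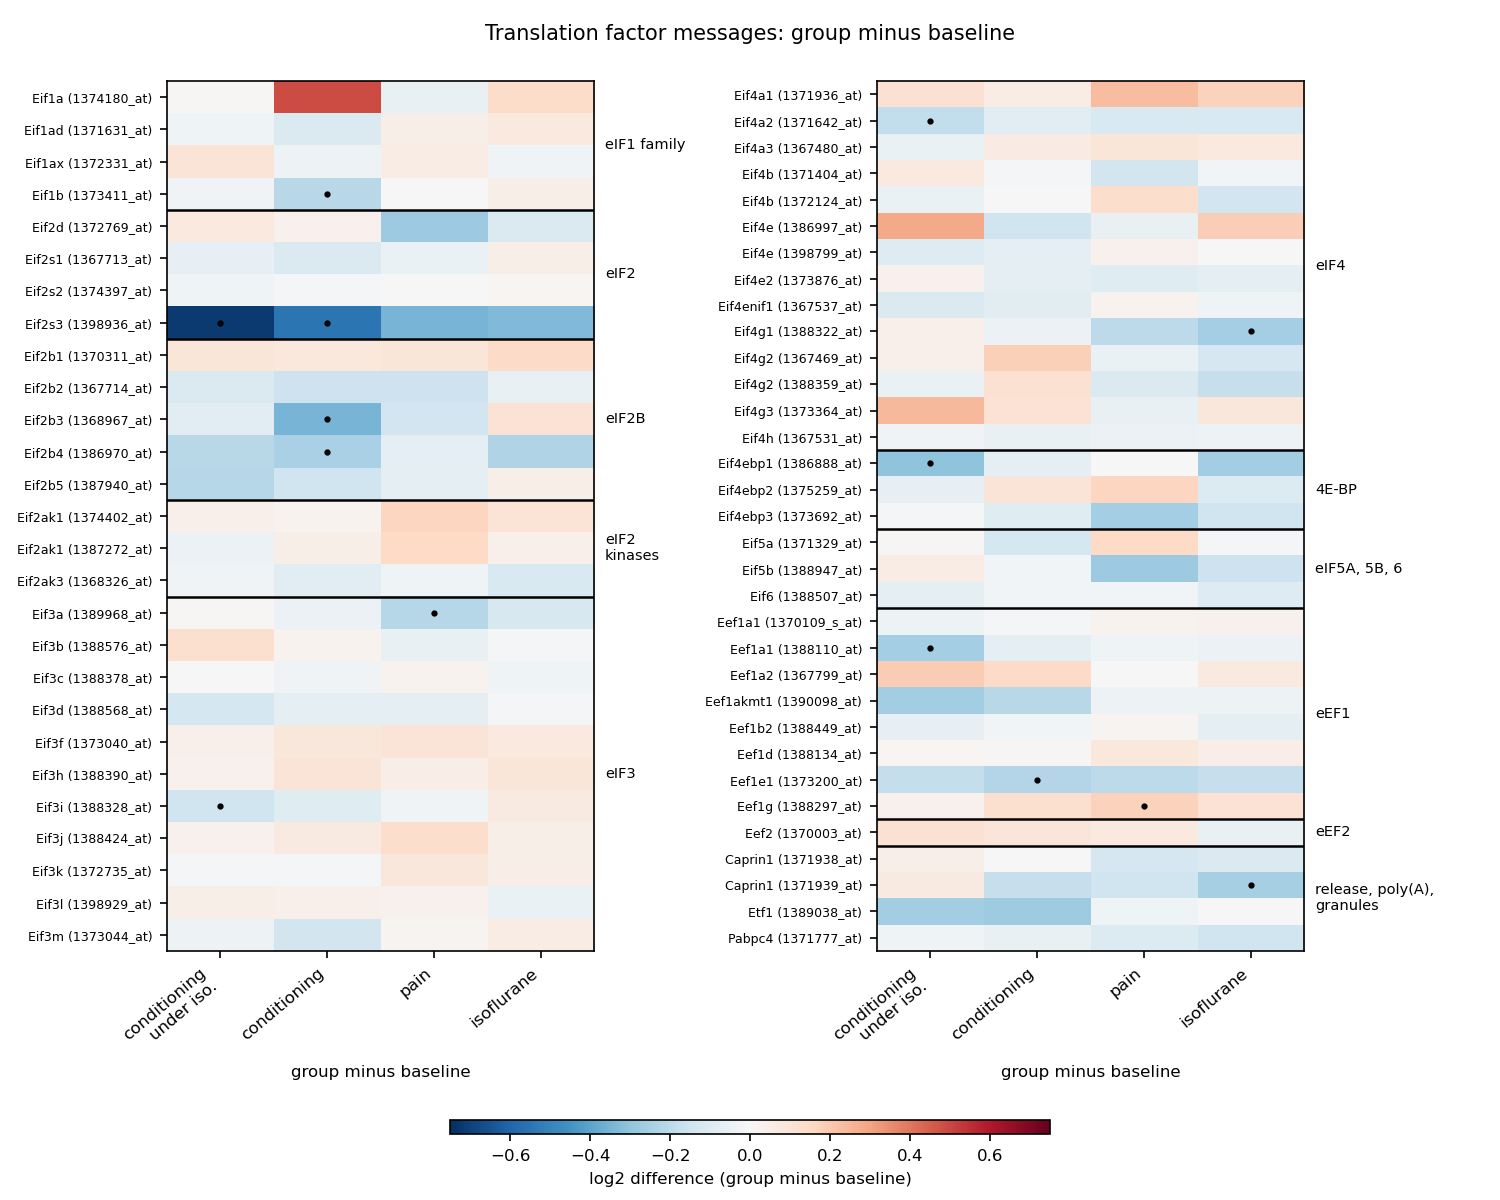
Log2 difference of each group from baseline (colour scale, log2 units) for the 60 tested probe sets, which run down the page by role, with conditioning under isoflurane, conditioning, pain and isoflurane across. Dots mark an unadjusted p under 0.05 in limma, and none passed after adjustment. The deepest blue is Eif2s3 in conditioning under isoflurane (-0.72) and the deepest red Eif1a in conditioning (0.49).

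The eIF2 complex and its regulators come first in the pathway. Eif2s3, the gamma subunit that holds GTP and the initiator tRNA, had the largest negative difference from baseline among the members. It measured 8.47, 9.06, 8.55, 9.23 and 8.25 in conditioning under isoflurane. It measured 9.35, 9.60, 8.38, 8.51 and 8.58 in conditioning, 8.59, 8.23, 9.78, 9.51 and 9.32 in pain and 8.92, 9.35, 9.01, 8.66 and 9.56 in isoflurane. Baseline values were 8.44 at the lowest, 9.61 at the median and 9.84 at the highest of the 9 baseline arrays. The groups overlapped widely, and all 5 arrays of conditioning under isoflurane lay under the baseline mean of 9.43. The lowest baseline value was on replicate 4, and the next lowest baseline array was at 9.18. Conditioning under isoflurane differed from baseline by -0.72 (SE 0.248, 95% interval -1.23 to -0.21), with an unadjusted p of 0.00694 and an adjusted p of 0.635 in limma. Conditioning differed from baseline by -0.55 (SE 0.248, 95% interval -1.05 to -0.04), with an unadjusted p of 0.0357 and an adjusted p of 0.474 in limma. Eif2s1, the alpha subunit whose phosphorylation slows initiation, averaged 10.04 ± 0.19, 9.99 ± 0.05, 10.05 ± 0.17 and 10.15 ± 0.09 in conditioning under isoflurane, conditioning, pain and isoflurane (SD, n = 5 each), and 10.10 ± 0.13 in baseline (SD, n = 9). Its 95% interval for conditioning minus baseline was -0.28 to 0.06. Eif2s2, the beta subunit, stayed within 10.30 to 10.67 in conditioning under isoflurane and 10.29 to 10.74 in baseline. Eif2d, which can load initiator tRNA without eIF2, averaged 7.46 ± 0.41 in pain (SD, n = 5) and 7.73 ± 0.34 in baseline (SD, n = 9), and its lowest value, 6.78, was on pain replicate 3.

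In eIF2B, the exchange factor, 4 of 5 tested probe sets averaged lower in conditioning than in baseline, with a median of -0.15. Eif2b3, the gamma subunit, measured 8.53, 8.57, 8.17, 8.87 and 9.04 in conditioning under isoflurane and 8.38, 8.21, 8.57, 8.39 and 8.28 in conditioning. It measured 8.49, 8.96, 8.15, 8.68 and 8.59 in pain and 9.09, 8.64, 8.98, 8.67 and 8.76 in isoflurane. The baseline arrays gave 8.33 at the lowest, 8.73 at the median and 8.92 at the highest of the 9 baseline arrays. All 5 conditioning arrays lay under the baseline mean of 8.72, although they overlapped the lowest baseline arrays. The difference was -0.35 (SE 0.132, 95% interval -0.62 to -0.08), with an unadjusted p of 0.0130 and an adjusted p of 0.419 in limma. Conditioning under isoflurane minus conditioning was 0.27, with a 95% interval of -0.04 to 0.57. Eif2b4, the delta subunit, averaged 9.36 ± 0.24 in conditioning (SD, n = 5) and 9.60 ± 0.15 in baseline (SD, n = 9), a difference of -0.24 (SE 0.117, 95% interval -0.48 to 0.00), with an unadjusted p of 0.0488 and an adjusted p of 0.489 in limma. In isoflurane Eif2b4 averaged 9.38 ± 0.26 (SD, n = 5), -0.23 from baseline. Eif2b1, the alpha subunit, averaged 9.06 ± 0.10 in isoflurane (SD, n = 5), with all 5 arrays above the baseline mean of 8.92, a difference of 0.14 (SE 0.0809, 95% interval -0.02 to 0.31), with an unadjusted p of 0.0866 and an adjusted p of 0.961 in limma. Eif2b5, the catalytic epsilon subunit, had the only pair of groups without overlap among the 60 tested members and the 7 pairwise comparisons. On 1387940_at it measured 8.15, 8.14, 8.01, 7.98 and 8.10 in conditioning under isoflurane and 8.22, 8.16, 8.48, 8.27 and 8.53 in isoflurane, a difference of -0.26 (SE 0.147, 95% interval -0.56 to 0.04), with an unadjusted p of 0.0896 and an adjusted p of 0.998 in limma. Its second probe set, 1376145_at, was below the filter at 5.15 to 7.22.

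Of the kinases that phosphorylate eIF2 alpha, Eif2ak1 (the haem-regulated kinase) and Eif2ak3 (PERK, the kinase of the endoplasmic reticulum) were tested. Eif2ak1 averaged 9.92 ± 0.22 in pain (SD, n = 5) and 9.76 ± 0.19 in baseline (SD, n = 9) on 1374402_at. On 1387272_at it averaged 9.87 ± 0.23 and 9.73 ± 0.21 in the same groups, and neither difference passed the test. Eif2ak2 (PKR) and Eif2ak4 (GCN2) were below the filter, at 5.40 to 7.79 and 6.67 to 7.70 over the 29 arrays.

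In eIF3 and eIF1, differences were small. Among 11 tested eIF3 probe sets, 7 averaged higher in pain and 5 in conditioning than in baseline. Eif3a, the large scaffold subunit, measured 9.80, 9.83, 10.05, 9.77 and 9.96 in conditioning under isoflurane and 9.79, 9.96, 9.61, 9.83 and 9.96 in conditioning. It measured 9.47, 9.82, 9.60, 9.71 and 9.70 in pain and 9.75, 9.67, 9.68, 9.80 and 9.85 in isoflurane. Its baseline level was 9.65 at the lowest, 9.91 at the median and 10.09 at the highest of the 9 baseline arrays. All 5 pain arrays lay under the baseline mean of 9.87, and 2 of them, at 9.47 and 9.60, lay under every baseline array. Pain differed from baseline by -0.21 (SE 0.0813, 95% interval -0.38 to -0.05), with an unadjusted p of 0.0138 and an adjusted p of 0.473 in limma. Without pain replicate 3 that difference was -0.20, with an unadjusted p of 0.0324 and an adjusted p of 0.942 in limma. Conditioning minus pain was 0.17, with a 95% interval of -0.02 to 0.36. Eif3i measured 9.99, 10.13, 10.17, 10.02 and 10.25 in conditioning under isoflurane. It measured 10.34, 10.56, 10.38, 10.10 and 10.26 in isoflurane, and was 10.06 at the lowest, 10.26 at the median and 10.39 at the highest of the 9 baseline arrays. Only 1 isoflurane array, at 10.10, lay within the range of conditioning under isoflurane, and the difference was -0.22 (SE 0.0808, 95% interval -0.38 to -0.05), with an unadjusted p of 0.0119 and an adjusted p of 0.998 in limma. Eif3j, a loosely bound subunit, averaged 10.38 ± 0.12 in pain (SD, n = 5) and 10.24 ± 0.10 in baseline (SD, n = 9), and Eif3h differed by -0.16 in the interaction defined below. Eif1b, a start-codon selection factor of the eIF1 type, averaged 9.99 ± 0.17 in conditioning (SD, n = 5) and 10.20 ± 0.13 in baseline (SD, n = 9). Its difference was -0.21 (SE 0.0908, 95% interval -0.39 to -0.02), with an unadjusted p of 0.0294 and an adjusted p of 0.465 in limma, and 1 of the 5 conditioning arrays lay above the baseline mean. Eif1a had the widest spread, 7.97 to 9.10 in conditioning and 7.39 to 9.03 in baseline. Its difference of 0.49 had a 95% interval of -0.16 to 1.14.

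The eIF4 group recruits the capped message. Eif4a2, the helicase paralogue prominent in neurons, measured 12.48, 12.53, 12.49, 12.49 and 12.25 in conditioning under isoflurane and 12.59, 12.57, 12.70, 12.30 and 12.59 in conditioning. It measured 12.57, 12.56, 12.66, 12.41 and 12.41 in pain and 12.60, 12.35, 12.50, 12.63 and 12.52 in isoflurane. In baseline it was 12.50 at the lowest, 12.67 at the median and 12.69 at the highest of the 9 baseline arrays. All 5 arrays of conditioning under isoflurane lay under the baseline mean of 12.63, and 4 of the 5 under the lowest baseline array. The difference was -0.19 (SE 0.0620, 95% interval -0.31 to -0.06), with an unadjusted p of 0.00550 and an adjusted p of 0.624 in limma, the lowest unadjusted p of any member in that comparison. Eif4a1, its paralogue, averaged 11.10 ± 0.09 in pain (SD, n = 5) and 10.87 ± 0.28 in baseline (SD, n = 9), a difference of 0.23 (SE 0.114, 95% interval 0.00 to 0.47), with an unadjusted p of 0.0507 and an adjusted p of 0.561 in limma. Eif4a3, a helicase of the exon junction complex, averaged 10.71 ± 0.13 and 10.62 ± 0.16 in those groups.

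Eif4e, the cap-binding protein, has 2 probe sets that disagreed. On 1386997_at it measured 7.74, 7.82, 7.50, 7.45 and 7.79 in conditioning under isoflurane and 7.02, 7.16, 7.47, 7.51 and 6.98 in conditioning, a difference of 0.44 (SE 0.214, 95% interval 0.00 to 0.87), with an unadjusted p of 0.0507 and an adjusted p of 0.999 in limma. On 1398799_at it measured 11.14, 11.21, 10.93, 11.15 and 11.25 in conditioning under isoflurane and 11.13, 11.05, 11.34, 11.11 and 11.16 in conditioning, a difference of -0.02 (SE 0.0752, 95% interval -0.18 to 0.13), with an unadjusted p of 0.767 and an adjusted p of 0.999 in limma. The groups overlapped narrowly on the first probe set and widely on the second. Eif4g1, the scaffold that bridges cap and ribosome, measured 9.45, 9.46, 9.64, 9.73 and 9.85 in conditioning under isoflurane and 8.96, 9.44, 9.47, 9.27 and 9.54 in isoflurane. It was 9.09 at the lowest, 9.59 at the median and 9.83 at the highest of the 9 baseline arrays. All 5 isoflurane arrays lay under the baseline mean of 9.59, and isoflurane minus baseline was -0.25 (SE 0.122, 95% interval -0.50 to 0.00), with an unadjusted p of 0.0482 and an adjusted p of 0.927 in limma. Conditioning under isoflurane minus isoflurane was 0.29 (SE 0.139, 95% interval 0.01 to 0.57), with an unadjusted p of 0.0459 and an adjusted p of 0.998 in limma. Eif4g2, a scaffold that lacks the eIF4E site, averaged higher in conditioning than in pain on both probe sets. The difference was 0.22 (SE 0.110, 95% interval 0.00 to 0.45), with an unadjusted p of 0.0494 and an adjusted p of 0.551 in limma on 1388359_at, and 0.23 with a 95% interval of -0.02 to 0.48 on 1367469_at. On 1388359_at the lowest pain value, 9.78, was on pain replicate 3. Without that array the difference was 0.12, and no eIF4 member had an unadjusted p under 0.05 in that comparison. Eif4g3, a further scaffold of this family, averaged 9.61 ± 0.19 in conditioning under isoflurane (SD, n = 5) and 9.36 ± 0.32 in baseline (SD, n = 9), with all 5 arrays above the baseline mean of 9.36. Its difference was 0.24 (SE 0.129, 95% interval -0.02 to 0.51), with an unadjusted p of 0.0668 and an adjusted p of 0.796 in limma. A second Eif4g1 probe set and Eif4e3 were below the filter, at 4.00 to 7.04 and 6.15 to 7.54. Eif4h, a partner of eIF4A, was the steadiest member, at 11.89 to 12.03 in conditioning under isoflurane and 11.90 to 12.06 in baseline.

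Among the 4E-BPs, Eif4ebp1 measured 8.10, 8.23, 8.64, 8.19 and 8.54 in conditioning under isoflurane and 9.16, 8.59, 8.25, 8.33 and 8.51 in conditioning. It measured 8.85, 8.66, 9.18, 8.02 and 8.49 in pain and 8.11, 8.67, 8.45, 8.34 and 8.33 in isoflurane. Baseline values were 8.50 at the lowest, 8.63 at the median and 8.80 at the highest of the 9 baseline arrays. The conditioning and pain arrays each held 1 array above 9.10, and 4 of the 5 arrays of conditioning under isoflurane lay under the baseline mean of 8.64. Conditioning under isoflurane minus baseline was -0.30 (SE 0.146, 95% interval -0.60 to 0.00), with an unadjusted p of 0.0467 and an adjusted p of 0.762 in limma. Isoflurane minus baseline was -0.26, so the lower level was not particular to conditioning under isoflurane. Eif4ebp2, the main 4E-BP of brain, averaged 9.02 ± 0.25, 9.18 ± 0.25, 9.25 ± 0.18 and 8.98 ± 0.14 in conditioning under isoflurane, conditioning, pain and isoflurane (SD, n = 5 each), and 9.08 ± 0.15 in baseline (SD, n = 9). Its largest difference from baseline was 0.16, in pain, with a 95% interval of -0.06 to 0.39.

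Eif5a, which relieves stalled ribosomes, measured 11.59, 11.58, 11.32, 11.50 and 11.74 in conditioning under isoflurane and 11.33, 11.30, 11.44, 11.65 and 11.31 in conditioning. It measured 11.64, 11.72, 11.48, 11.73 and 11.86 in pain and 11.70, 11.66, 11.46, 11.32 and 11.49 in isoflurane. The baseline arrays gave 11.34 at the lowest, 11.49 at the median and 11.79 at the highest of the 9 baseline arrays. Only 1 of the 5 conditioning arrays, at 11.65, reached the range of the pain arrays. Conditioning minus pain was -0.28 (SE 0.0922, 95% interval -0.47 to -0.09), with an unadjusted p of 0.00483 and an adjusted p of 0.452 in limma, the lowest unadjusted p of a member in that comparison. Without pain replicate 3 the difference was -0.33, with an unadjusted p of 0.00157 and an adjusted p of 0.566 in limma. Eif5b, which joins the ribosomal subunits, had 7.20 on pain replicate 3 and 8.32 to 8.64 on the other pain arrays. Eif6, which keeps the large subunit free, stayed within 10.49 to 10.77 in conditioning under isoflurane and 10.56 to 10.81 in baseline.

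In elongation, Eef2, the translocase, measured 11.85, 11.99, 12.01, 12.06 and 11.87 in conditioning under isoflurane and 12.16, 12.09, 11.74, 11.90 and 11.77 in conditioning. It measured 11.94, 11.91, 11.88, 12.11 and 11.73 in pain and 11.75, 11.70, 11.84, 11.74 and 11.88 in isoflurane. Its baseline level was 11.68 at the lowest, 11.83 at the median and 12.06 at the highest of the 9 baseline arrays. Most arrays lay within the baseline range, with 2 conditioning arrays and 1 pain array above it, and the 95% intervals against baseline were -0.03 to 0.26, -0.06 to 0.24, -0.07 to 0.22 and -0.20 to 0.09 for conditioning under isoflurane, conditioning, pain and isoflurane. Conditioning under isoflurane minus isoflurane was 0.17 (SE 0.0824, 95% interval 0.00 to 0.34), with an unadjusted p of 0.0462 and an adjusted p of 0.998 in limma. Eef2k, the eEF2 kinase, was left out of the main fit, as its 4 probe sets were below the filter. They ranged over 4.47 to 7.84, 4.32 to 7.00, 4.00 to 6.91 and 4.00 to 6.41, where 4.00 is the floor set on the signal.

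Eef1a1, which delivers tRNAs in most tissues, has 2 probe sets. On 1388110_at it measured 12.63, 12.94, 12.74, 12.61 and 12.66 in conditioning under isoflurane and 12.85, 13.21, 12.85, 12.58 and 13.02 in conditioning. It measured 13.09, 13.00, 13.17, 12.79 and 12.66 in pain and 12.82, 12.74, 12.93, 12.99 and 13.17 in isoflurane. In baseline it was 12.67 at the lowest, 13.03 at the median and 13.22 at the highest of the 9 baseline arrays. All 5 arrays of conditioning under isoflurane lay under the baseline mean of 12.97, and 3 of the 5 under the lowest baseline array. The difference was -0.26 (SE 0.101, 95% interval -0.46 to -0.05), with an unadjusted p of 0.0165 and an adjusted p of 0.692 in limma. On 1370109_s_at, whose suffix marks probes shared with related transcripts, the same difference was -0.04, with a 95% interval of -0.14 to 0.07. Near-identical Eef1a1 copies can share signal, so both values carry that limit. Eef1a2, the neuronal and muscle form, averaged 12.40 ± 0.19, 12.35 ± 0.20, 12.21 ± 0.40 and 12.28 ± 0.31 in conditioning under isoflurane, conditioning, pain and isoflurane (SD, n = 5 each), and 12.21 ± 0.28 in baseline (SD, n = 9). Its 95% interval for conditioning under isoflurane minus baseline was -0.11 to 0.49.

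Eef1g, a subunit of the complex that recharges eEF1A, measured 12.28, 12.09, 11.93, 11.95 and 11.87 in conditioning under isoflurane and 12.06, 12.39, 12.23, 11.90 and 11.98 in conditioning. It measured 12.24, 12.12, 12.46, 11.97 and 12.02 in pain and 12.20, 11.95, 12.23, 12.21 and 11.92 in isoflurane. Baseline values were 11.89 at the lowest, 11.97 at the median and 12.11 at the highest of the 9 baseline arrays. The highest pain value, 12.46, was on pain replicate 3. Pain minus baseline was 0.17 (SE 0.0833, 95% interval 0.00 to 0.34), with an unadjusted p of 0.0488 and an adjusted p of 0.555 in limma, and 0.10 without that array. Eef1b2 and Eef1d, the other subunits of that complex, had pain minus baseline differences of 0.02 and 0.08. Eef1e1, a component of the tRNA synthetase complex despite its name, measured 10.35, 10.36, 10.25, 10.28 and 10.50 in conditioning under isoflurane and 10.11, 10.21, 10.42, 10.52 and 10.29 in conditioning. It measured 10.39, 10.37, 10.32, 10.19 and 10.40 in pain and 10.59, 10.19, 10.50, 10.41 and 10.09 in isoflurane. The baseline arrays gave 10.29 at the lowest, 10.43 at the median and 10.88 at the highest of the 9 baseline arrays. All 5 arrays of conditioning under isoflurane, of conditioning and of pain lay under the baseline mean of 10.53. So did the isoflurane arrays apart from that at 10.59. Conditioning minus baseline was -0.22 (SE 0.0992, 95% interval -0.42 to -0.02), with an unadjusted p of 0.0342 and an adjusted p of 0.467 in limma. Eef1akmt1, which methylates eEF1A, averaged 7.86 ± 0.12 in conditioning under isoflurane (SD, n = 5) and 8.12 ± 0.28 in baseline (SD, n = 9), and Eef1akmt4 was below the filter at 4.00 to 7.04.

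**Figure D3:**
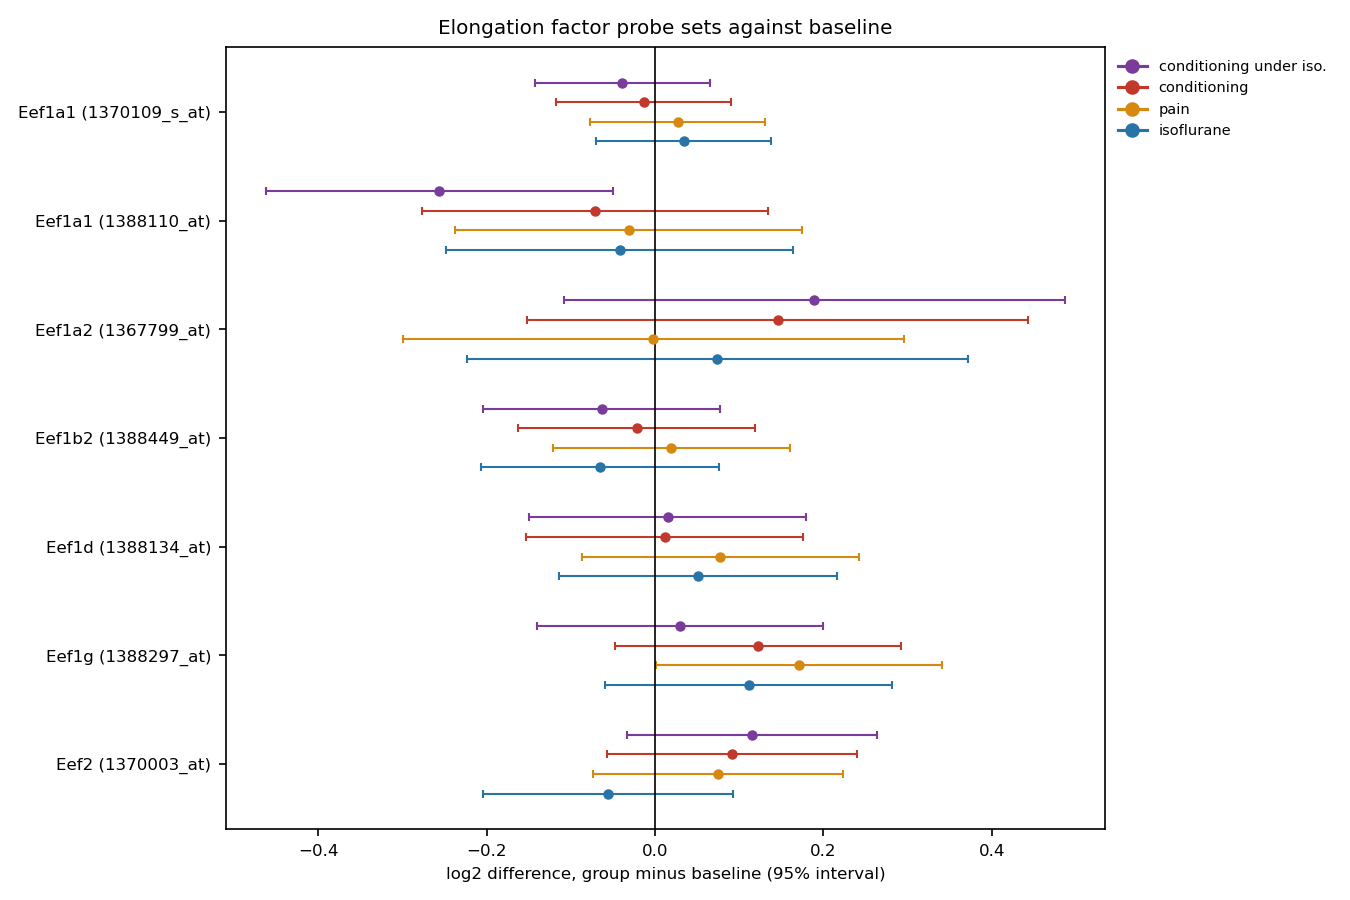
Log2 difference from baseline (horizontal axis) with its 95% interval from limma for 7 elongation factor probe sets (vertical axis), in conditioning under isoflurane, conditioning, pain and isoflurane. Points are differences of group means and bars their intervals, which for Eef2 reach from -0.20 to 0.26 over the 4 groups. Only Eef1a1 on 1388110_at in conditioning under isoflurane and Eef1g in pain have intervals that leave out 0, and neither passed after adjustment.

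Caprin1, an RNA granule protein that represses translation of messages carried into dendrites, had the lowest unadjusted p of the members in the interaction and in 3 comparisons with isoflurane, given below. On 1371939_at it measured 10.02, 9.97, 10.16, 10.13 and 9.93 in conditioning under isoflurane and 9.56, 9.72, 9.81, 9.97 and 9.95 in conditioning. It measured 9.96, 9.81, 9.58, 9.94 and 9.84 in pain and 10.05, 9.51, 9.52, 9.97 and 9.59 in isoflurane. Its baseline level was 9.77 at the lowest, 9.95 at the median and 10.20 at the highest of the 9 baseline arrays. The isoflurane arrays split into 3 at 9.51 to 9.59 and 2 at 9.97 and 10.05, and that pair lay within the range of conditioning under isoflurane. Isoflurane minus baseline was -0.25 (SE 0.0967, 95% interval -0.44 to -0.05), with an unadjusted p of 0.0158 and an adjusted p of 0.922 in limma. Conditioning under isoflurane minus isoflurane was 0.31 (SE 0.110, 95% interval 0.09 to 0.54), with an unadjusted p of 0.00737 and an adjusted p of 0.998 in limma. Conditioning under isoflurane minus conditioning was 0.24 (SE 0.110, 95% interval 0.02 to 0.47), with an unadjusted p of 0.0354 and an adjusted p of 0.999 in limma.

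The interaction asks whether isoflurane altered the response to conditioning: it is the difference between conditioning under isoflurane and isoflurane, minus the difference between conditioning and baseline. For Caprin1 on 1371939_at it was 0.49 (SE 0.146, 95% interval 0.19 to 0.79), with an unadjusted p of 0.00222 and an adjusted p of 0.959 in limma. On its other probe set, 1371938_at, the interaction was 0.15, with a 95% interval of -0.14 to 0.45. On 1371938_at Caprin1 averaged 10.18 ± 0.09, 10.14 ± 0.15, 10.02 ± 0.13 and 10.03 ± 0.12 in conditioning under isoflurane, conditioning, pain and isoflurane (SD, n = 5 each), and 10.14 ± 0.23 in baseline (SD, n = 9). Over the members, 37 interactions were positive and 23 negative, with a median of 0.03. By an unadjusted p under 0.05, 1 was positive (Caprin1) and 0 negative, against 2.38% and 2.41% of all probe sets, and 0 members and 0% of all probe sets passed after adjustment. Eif4g1 had an interaction of 0.33 and Eef1g of -0.20, both with intervals that include 0. The other members named by rank were Eif2b4 at 0.26 and Eif4a3 at -0.19. Among the markers, the interaction was negative on 10 of 10 oligodendrocyte probe sets (median -0.32). It was positive on 6 of 6 striatal probe sets (median 0.40) and 7 of 7 of inhibitory neurons (median 0.20). The part of tissue makeup in the interaction was not tested.

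Conditioning under isoflurane against conditioning had 35 members higher and 25 lower, with a median of 0.01. Before adjustment, at p under 0.05, 1 was higher (Caprin1 on 1371939_at) and 0 lower, against 1.79% and 1.90% of all probe sets. Of the members, 0 passed after adjustment, as did 0% of all probe sets, and 0 members failed to overlap, against 0.704% of all. In this comparison oligodendrocyte markers averaged lower on 10 of 10 probe sets (median -0.28) and astrocyte markers on 9 of 11 (median -0.13). Striatal markers averaged higher on 6 of 6 (median 0.37) and inhibitory neuron markers on 7 of 7 (median 0.18). Their part in the result was not tested. Conditioning under isoflurane against isoflurane had 28 members higher and 32 lower, with a median of -0.02. At an unadjusted p under 0.05, 3 were higher (Caprin1, Eif4g1 and Eef2) and 1 lower (Eif3i), against 1.88% and 2.12% of all. With adjustment, 0 members and 0% of all probe sets passed, and 1 member, Eif2b5, failed to overlap, against 0.924% of all. Conditioning against pain had 21 higher and 39 lower, with a median of -0.04, or 24 and 36 with a median of -0.03 without pain replicate 3. Before adjustment, at p under 0.05, 1 was higher (Eif4g2) and 1 lower (Eif5a), against 4.74% and 4.31% of all. Blood markers averaged higher in conditioning than in pain on 2 of 2 probe sets (median 0.79) and oligodendrocyte markers on 10 of 10 (median 0.24). Without pain replicate 3, 0 members were higher and 3 lower, Eif5a, Eif1b and Eif2b3, and the share of all probe sets in that fit is not given here. After adjustment 0 members and 0% of all probe sets passed, and 0 members failed to overlap, against 1.13% of all.

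Etf1, the factor that reads stop codons, measured 9.30, 9.55, 9.18, 9.27 and 8.92 in conditioning under isoflurane and 9.32, 9.28, 9.20, 9.47 and 8.93 in conditioning. It measured 9.37, 9.60, 9.37, 9.57 and 9.46 in pain and 9.67, 8.96, 9.44, 9.57 and 9.86 in isoflurane. In baseline it was 8.68 at the lowest, 9.70 at the median and 9.85 at the highest of the 9 baseline arrays. All 5 conditioning arrays lay under the baseline mean of 9.50, and conditioning minus baseline was -0.27 (SE 0.153, 95% interval -0.58 to 0.05), with an unadjusted p of 0.0917 and an adjusted p of 0.551 in limma. Pabpc4, a poly(A)-binding protein, averaged 9.92 ± 0.10 in conditioning under isoflurane (SD, n = 5) and 9.95 ± 0.28 in baseline (SD, n = 9).

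The baseline arrays themselves differed for several members. Replicates 6 to 9 did not overlap replicates 1 to 5 for 9 of 60 members (15.0%), 6 higher and 3 lower in replicates 6 to 9. Over all probe sets tested, 3.75% were wholly higher and 3.24% wholly lower in replicates 6 to 9. Eif4e on 1386997_at averaged 7.74 ± 0.16 in replicates 6 to 9 and 7.09 ± 0.26 in replicates 1 to 5 (SD, n = 4 and n = 5). Eef1a2 averaged 11.96 ± 0.21 in replicates 6 to 9 and 12.41 ± 0.12 in replicates 1 to 5. Caprin1 on 1371938_at averaged 10.37 ± 0.04 in replicates 6 to 9 and 9.96 ± 0.10 in replicates 1 to 5. Eef1e1 averaged 10.75 ± 0.14 in replicates 6 to 9 and 10.36 ± 0.05 in replicates 1 to 5. Etf1, Pabpc4 and Eif5a were also wholly higher in replicates 6 to 9, and Eif2b5 on 1387940_at and Eif2ak1 on 1374402_at wholly lower. The labels do not say what sets these arrays apart, and no test was made of this split.

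**Figure D4:**
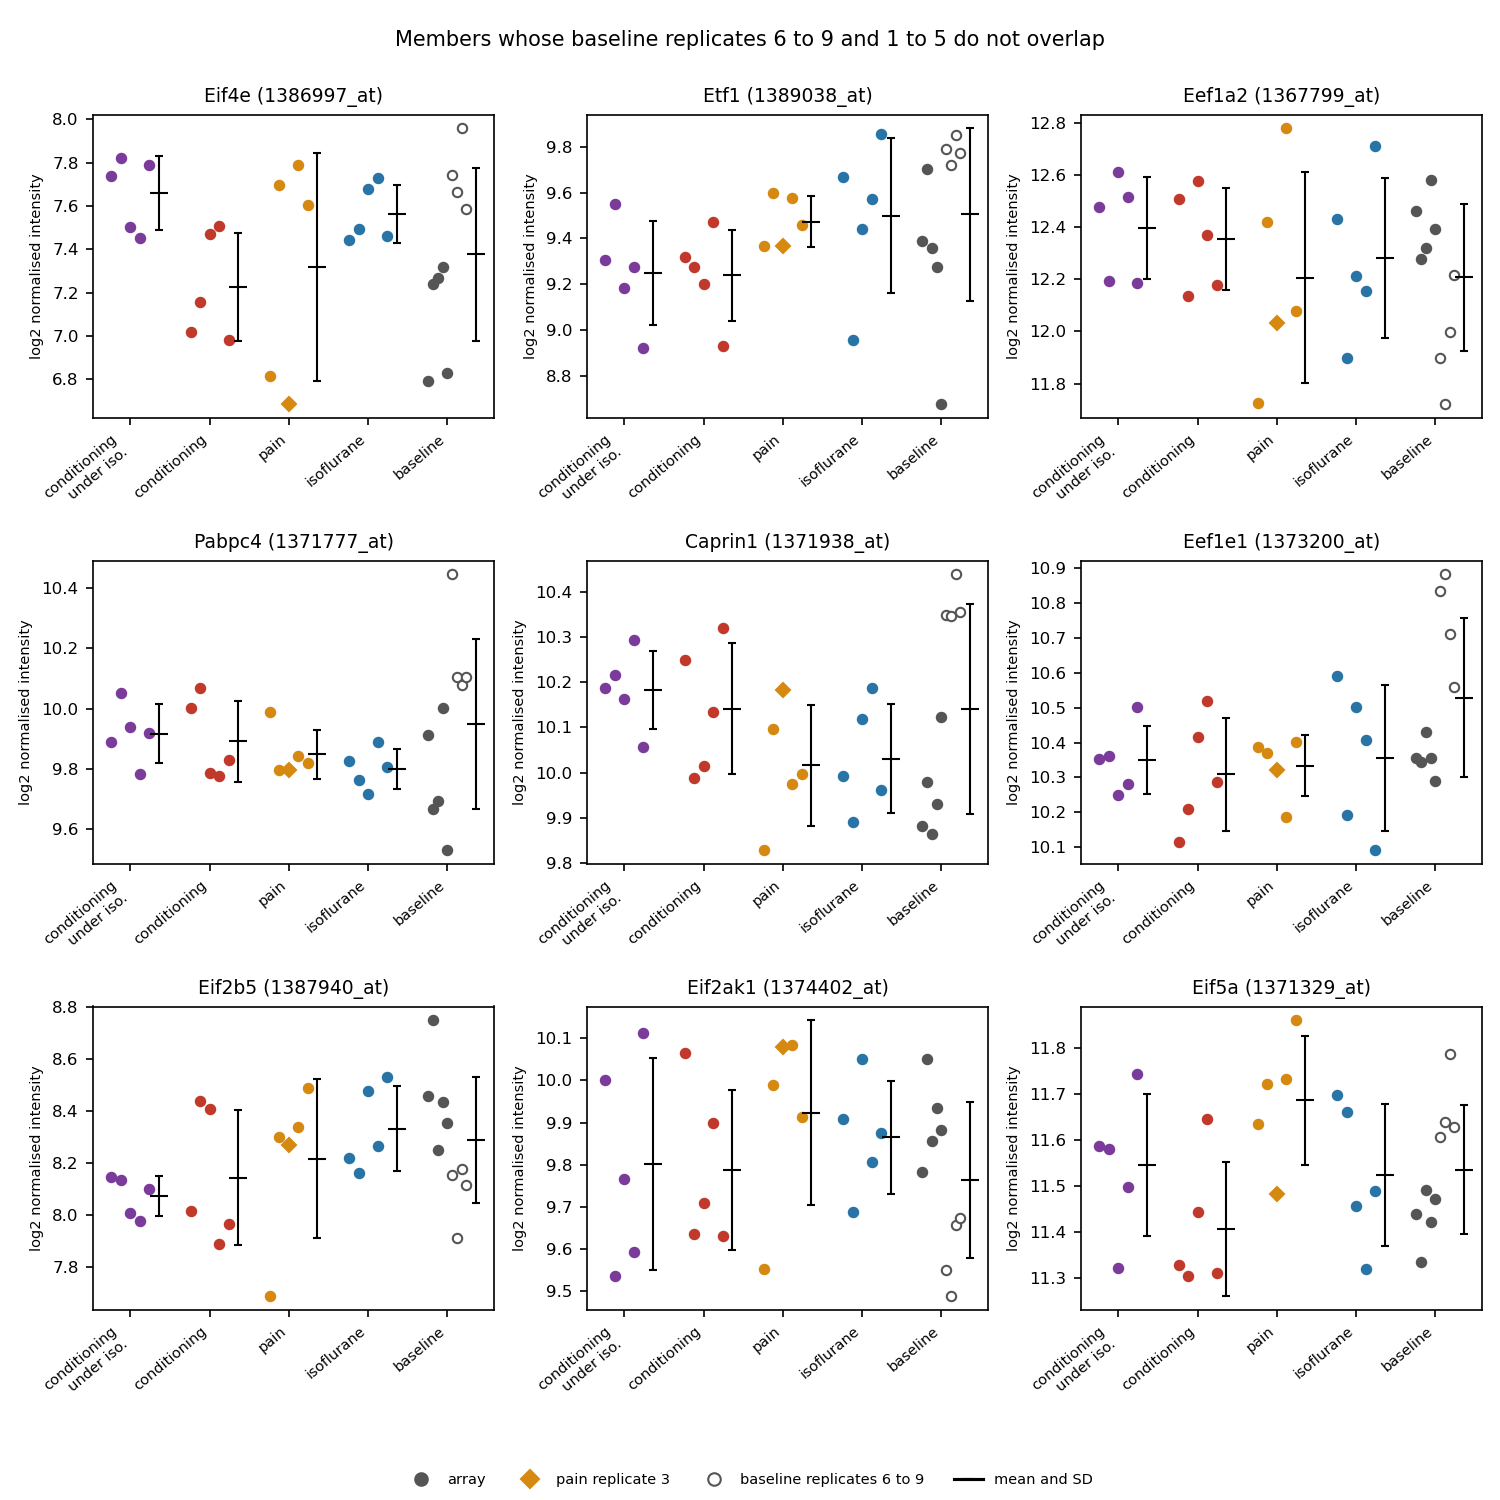
Log2 normalised intensity (vertical axes) on each array for the 9 members whose baseline replicates 6 to 9 (open points) and 1 to 5 (filled points) do not overlap, with groups from conditioning under isoflurane to baseline on the horizontal axes. Bars give the mean and SD, and the diamond is pain replicate 3. For Eef1e1 the open points sit at 10.56 to 10.88 and the filled baseline points at 10.29 to 10.43, and the treated arrays run from 10.09 to 10.59.

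Differences from baseline depended on which baseline arrays were used. With replicates 6 to 9 alone, pain against baseline called 3 of 60 members, all lower, among 160 calls (1.68% of all probe sets). They were Eef1e1 at -0.41 (adjusted p = 0.0390 in limma), Caprin1 on 1371938_at at -0.36 (adjusted p = 0.0393 in limma) and Eif4b on 1371404_at at -0.31 (adjusted p = 0.0464 in limma). Conditioning against baseline called 1 member, Eef1e1 at -0.44 (adjusted p = 0.0365 in limma), among 101 calls (1.06%). Isoflurane and conditioning under isoflurane called 0 members, among 29 (0.305%) and 57 calls (0.599%). With replicates 1 to 5 alone, 0 members and 0 probe sets were called in any of the 4 comparisons. There pain minus baseline was -0.02 for Eef1e1, 0.06 for Caprin1 on 1371938_at and 0.00 for Eif4b on 1371404_at, and conditioning minus baseline was -0.05 for Eef1e1. With all 9 baseline arrays the pain differences were -0.20, -0.13 and -0.14 in the same order, and none passed the test.

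Probe sets of the same gene gave a check within each array. For 6 genes with 2 tested probe sets (Caprin1, Eef1a1, Eif2ak1, Eif4b, Eif4e and Eif4g2), the signs were the same for 2 genes in conditioning under isoflurane minus baseline and for 5 in conditioning minus baseline. They were the same for 3 in pain minus baseline and for 4 in isoflurane minus baseline. In the comparisons among treated groups and the interaction, the signs matched for 3 to 5 of the 6 genes.

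TOP messages were set beside the other members, using a list written from general knowledge. In pain minus baseline, 8 of 10 tested TOP probe sets averaged higher, with a median of 0.06, against 17 of 50 other members with a median of -0.04. In conditioning minus baseline the counts were 5 of 10 (median 0.00) and 16 of 50 (median -0.06). In conditioning under isoflurane minus baseline they were 6 of 10 (median 0.02) and 21 of 50 (median -0.03), and in isoflurane minus baseline 5 of 10 (median 0.01) and 19 of 50 (median -0.03). In conditioning under isoflurane minus conditioning they were 3 of 10 (median -0.04) and 32 of 50 (median 0.03). No TOP probe set passed after adjustment, and these counts were not tested against each other.

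The regulators and partners upstream and around these factors gave no call either. None of 18 probe sets for mTOR and its inputs, 10 for factors downstream of mTOR and ERK (the kinases Mknk1, Mknk2, Rps6ka2 and Rps6kb1, and Larp1, Rps6 and Pdcd4, which are not kinases), 6 for the integrated stress response, 22 for local translation and RNA granules, 3 for termination and recycling, or 20 for aminoacyl-tRNA synthetases passed after adjustment in any comparison. The synthetases, which charge tRNAs, averaged lower in conditioning than in baseline on 15 of 20 probe sets, with a median of -0.10. At an unadjusted p under 0.05, 0 of the 20 were higher and 5 lower, against 5.12% and 5.03% of all probe sets tested. Their interaction was positive on 16 of 20, with a median of 0.11. Local translation and granule genes averaged higher in conditioning than in baseline on 16 of 22 probe sets, with a median of 0.06, but at an unadjusted p under 0.05 there were 0 higher and 2 lower. The integrated stress response genes averaged lower in conditioning under isoflurane than in baseline on 5 of 6, with a median of -0.07. mTOR and its inputs were split, with 10 of 18 higher in conditioning and 7 of 18 in pain than in baseline, and of the 4 kinases downstream 2 were higher in conditioning and 1 in pain.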

How the data were processed

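The deposited values are linear intensity values of 29 one-colour rat arrays, 1 value per probe set, made by the authors; the scanner software and its settings are not given in the sources used here. Their mean without the lowest and highest 2% was 500.1 on every array, so the authors had scaled each array. As the deposited medians spanned 0.47 log2 units, more than the 0.2 set as limit, intensities were quantile normalised, values under 16 were set to 16, and log2 was taken. Control probe sets (57) were left out, and probe sets with a mean of at least 7.26 (40th percentile) were tested. Limma 3.58.1 in R 4.3.3 fitted 1 mean per group over all 29 arrays, with a variance trend, 8 contrasts and an F test. Benjamini-Hochberg adjustment ran over 9520 probe sets, with a threshold of 0.05. The fit was tested on simulated data with planted differences larger than any member showed in the main fit. That test does not bear on differences of the size seen in the members. All 70 member probe sets matched a current gene record. Pabpc1 has no single-symbol probe set among them.

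Groups came from sample titles; FC and IFC were read through the series' design text. Members and lists were chosen with earlier results of these data known. Named members are, for each comparison, up to 3 with the lowest unadjusted p in each direction, the 6 lowest in the F test, and a fixed list of core factors; members named for the baseline subsets were chosen after their values were seen. Alternatives covered scaling, filter, floor, a replicate block, baseline subsets, the groups fitted and each array left out. The number of arrays limits the precision.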

Additional observations from a re-analysis of the deposited data

Results flagged for a closer look

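In each group of 5 or 9 arrays, the array farthest out was compared with its nearest neighbour against the range of the group. This marked 18 of 300 sets of values of the tested members (6.00%), where chance marks about 1 in 20, and 10 of them belong to named members. Of the 10, 5 lie on pain replicate 3, the array with the lowest correlation with the others. There Eif1a on 1374180_at was at 6.57, Eif1b at 9.95 and Eif2s1 at 9.75. Eif4g2 on 1388359_at was at 9.78 and Eif4g3 at 8.95 on that array, each below the other 4 pain arrays. Eif2b5 on 1387940_at was at 7.69 on pain replicate 1, below the other pain arrays at 8.27 to 8.49. Eif4a2 was at 12.25 on conditioning under isoflurane replicate 5, below the others at 12.48 to 12.53. Eif3i was at 10.28 on conditioning replicate 1, above the others at 10.12 to 10.15. In baseline, Eif2s3 was at 8.44 on replicate 4 and Etf1 at 8.68 on replicate 5, each below the other 8 arrays. No cause was tested.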

How the results depend on the processing

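The count of called members was 0 under every alternative except baseline replicates 6 to 9 only, which gave 3 in pain and 1 in conditioning against baseline. Leaving out any 1 array gave 0 throughout. With arrays centred on their medians the median member difference was -0.16 in pain minus baseline, -0.12 in conditioning minus baseline, 0.024 in conditioning minus pain and 0.11 in the interaction, where all probe sets moved to -0.11, -0.06, 0.04 and 0.06. With baseline replicates 6 to 9 only, conditioning minus baseline was -0.083. With a replicate block, and likewise with baseline replicates 1 to 5 only, pain minus baseline was 0.019 and isoflurane minus baseline 0.018. The block rests on numbers alone. Same-numbered pairs correlated from -0.24 to 0.26, with 12 of 50 over 0.1, so the numbers were not taken to pair the samples. Replicate numbers 6 to 9 exist in baseline only, so the block took those arrays out of the differences. Its differences from baseline are those with baseline replicates 1 to 5 only, so it was no separate check, and it changed no call. Counts at an unadjusted p under 0.05 moved with the setting, as did the share of all probe sets. With baseline replicates 6 to 9 only, 3 members were higher and 9 lower in conditioning under isoflurane against baseline (7.66% and 6.85% of all probe sets), 1 and 12 in conditioning (9.34% and 8.81%), 3 and 10 in pain (9.11% and 9.44%) and 3 and 8 in isoflurane (7.15% and 6.59%). With replicates 1 to 5 only the counts were 4 and 3 (2.95% and 2.38%), 1 and 1 (3.57% and 3.38%), 2 and 0 (2.37% and 2.52%) and 1 and 0 (2.30% and 1.76%). With arrays centred on their medians, 0 and 9 members passed in conditioning (2.33% and 8.90%) and 0 and 13 in pain (1.91% and 13.8%). The F test gave 1 member with the filter at the 70th percentile (7.29% of all) to 12 with baseline replicates 6 to 9 only (15.0%), and 0 to 5 with 1 array left out. With 1 array left out, lower members in conditioning under isoflurane ran from 3 to 7 and in pain from 1 to 4. The shares of all probe sets with 1 array left out are not given here, so these ranges are not read as results about the members. Of 133 named differences, 73 kept their sign under every alternative. The signal filter kept Eef2k out of the main fit. The alternative without a filter did fit its probe sets, and no member was called there.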

Other observations

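Eif5, the factor that triggers GTP hydrolysis by eIF2, and Eif3e, an eIF3 subunit, lie only on probe sets annotated with several symbols, so they are outside the 70. On 1388206_a_at, annotated Eif5-ps1 and Eif5, isoflurane minus baseline was -0.35 (SE 0.0988, unadjusted p = 0.00118, adjusted p = 0.722 in limma). On the same probe set, conditioning under isoflurane minus isoflurane was 0.28 (unadjusted p = 0.0169 in limma). On 1398845_at, with the same annotation, these differences were -0.13 and 0.20 (unadjusted p = 0.0490 and 0.00683 in limma). On 1398846_at, again with that annotation, they were 0.01 and 0.01 (unadjusted p = 0.941 and 0.951 in limma). On 1371973_at, annotated Eif3el1 and Eif3e, conditioning under isoflurane minus isoflurane was -0.21 (unadjusted p = 0.0175 in limma). These probe sets were noticed after their values were seen.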
